A study of Homo sapiens with 2 samples.

Results

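Oestrogen receptor α (ERα) peaks on chromosome 19 are described here, defined as the rows of the deposited peak list whose sequence name is chromosome 19 in the hg19 build. They numbered 394 of the 12688 peaks in the list, or 3.11%, and covered 0.353% of the 59.1 Mb chromosome. The list comes from T47D cells, an established ERα-positive human breast cancer line. All of these cells spent 48 h in steroid-depleted medium and then received 10 nM 17β-estradiol for 45 min; estradiol is the receptor's principal natural ligand. There were 2 groups of 1 library each, ERα chromatin immunoprecipitated with the H-20 antibody and input DNA from estradiol-treated cells taken without antibody. Without replicates or an untreated library, the values describe listed occupancy after estradiol and carry no error between samples.

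ERα is a nuclear receptor that binds DNA once it holds its ligand, at oestrogen response elements and through other bound factors, and many of its sites lie in enhancers far from promoters. Chromosome 19 is known for its high gene density and for tandem clusters of zinc-finger genes. Many of these genes encode KRAB zinc-finger proteins, DNA-binding repressors that recruit TRIM28 and silence transposable elements. In other cell lines such clusters are known to carry the repressive histone mark H3K9me3 over many of their genes.

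Peaks were placed by their centres, and coordinates are hg19, counted from 1. Intervals are 95% intervals for counting error only. They treat peaks as independent, which neighbouring peaks are not, and the read depth behind each peak is unknown. The score is the authors' own value for each peak and served only for ranking and dividing this list. Neither sequence nor gene annotation of hg19 was used, so no peak was assigned to a gene and no peak sequence is shown. Sequence content, mappability and the copy number of chromosome 19 in T47D cells, beyond the authors' use of the input, were not tested.

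ERα peaks were more frequent per Mb on chromosome 19 than on the other chromosomes, but less frequent per gene than on any of them. Chromosome 19 held 6.66 peaks per Mb (exact Poisson interval 6.02 to 7.35), the second highest of 23 chromosomes (1 to 22 and X), against 4.12 per Mb (4.04 to 4.19) on the other chromosomes together. The ratio was 1.62 (exact conditional interval 1.46 to 1.79). Chromosomes 17 and 20 were chosen for comparison as the nearest in density in an earlier look at these data. Density ratios near 1 to them therefore follow from the choice. Chromosome 17 had more peaks per Mb, with a ratio of 19 to 17 of 0.838 (0.737 to 0.951). The variance of 1 Mb window counts was 5.26 times their mean on 19 and 7.50 times on 17, so this interval is too narrow. With an upper limit of 0.951, a lower density on 19 than on 17 is therefore not established. The ratio to chromosome 20 was 1.02 (0.888 to 1.18), an interval that includes 1, and the ratio to chromosome 22, another small gene-dense chromosome, was 1.37 (1.16 to 1.61). With neighbouring peaks joined into 1 region when under 10 kb separated their edges, the densities were 4.50 regions per Mb on chromosome 19, 5.43 on 17, 4.68 on 20 and 3.20 on 22. All these densities, ratios and ranks use full hg19 lengths, with unsequenced parts left in. On chromosome 22, 19 of the 52 windows of 1 Mb held no peak, against 7 of 60 on chromosome 19. Sequenced length was not measured, so an excess over chromosome 22 per sequenced Mb is not established.

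The description of chromosome 19 as gene-dense held in the RefSeq gene table of GRCh38.p14, from which only chromosome membership and gene order were taken. It places 1451 protein-coding genes on chromosome 19, or 24.5 per Mb of hg19 length, the highest of the 23 chromosomes, against 14.4 on chromosome 17 and 6.22 on the other chromosomes together. Per 100 protein-coding genes, chromosome 19 had 27.2 ERα peaks (24.5 to 30.0), which ranked 23 of 23. Chromosome X was next with 34.4 (30.6 to 38.6), chromosome 17 had 55.3 and the other chromosomes together 66.2 (65.0 to 67.3). The ratio of chromosome 19 to the others was 0.410 (0.370 to 0.454). Genes named ZNF with a number made up 250 of the 1451, or 17.2%, against 1.44% elsewhere. In gene order, 226 of the 250 stood next to another such gene, and the longest unbroken run held 27. Without ZNF genes in the denominators the ratio was 0.489 (0.441 to 0.540) and chromosome 19 still ranked 23, with 32.8 peaks per 100 genes. Chromosome X was then close, with 34.9, so the last place was less clear.

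**Figure D1:**
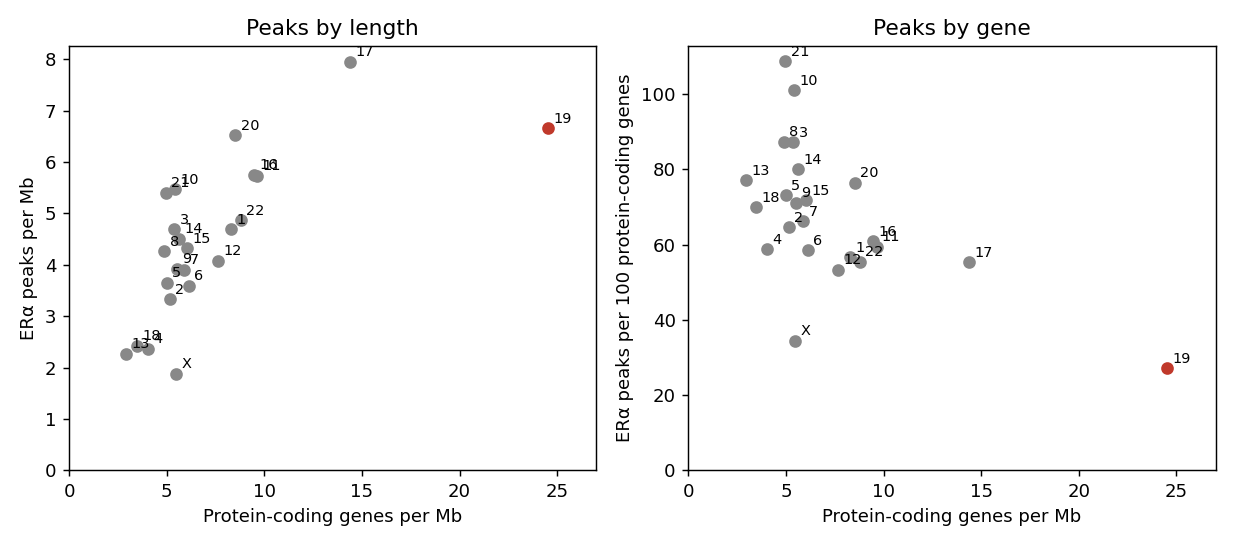
ERα peaks per Mb (left) and per 100 protein-coding genes (right) against protein-coding genes per Mb, 1 point per chromosome, with chromosome 19 in red. Chromosome 19 stands at 24.5 genes per Mb, where its 6.66 peaks per Mb rank second and its 27.2 peaks per 100 genes rank last.

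The short arm was denser in ERα peaks than the long arm. With the arms divided at 26 Mb, inside the centromeric gap, 225 peaks lay on the short arm and 169 on the long arm, or 8.65 (7.56 to 9.86) and 5.10 (4.36 to 5.93) per Mb. The ratio was 1.70 (1.38 to 2.08), so the arms differed by more than counting error. Leaving out the zinc-finger stretches and the windows from 24 to 28 Mb gave a ratio of 1.72 (1.39 to 2.13).

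Among the 60 windows of 1 Mb, of which the last is a short remainder, the median held 5 peaks (quartiles 2 and 11.2). The median was 2 over the 2993 windows of the other chromosomes. Peaks were absent from 7 of the windows on chromosome 19, or 11.7%, against 24.4% elsewhere, and 18 windows, or 30.0%, held 10 or more, against 12.8% elsewhere. The fullest window on chromosome 19 held 21 peaks, against 39 on chromosome 17 and 60 as the highest of the 2993 others. The variance of the counts was 5.26 times their mean, against 6.31 on the other chromosomes. The 10 fullest windows held 167 of the 394 peaks, or 42.4% (Wilson interval 37.6 to 47.3%).

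On the short arm full windows lay near the telomere, at 7 to 8 Mb and at 15 to 19 Mb. The window from 2000001 to 3000000 held 21 peaks and that from 1000001 to 2000000 held 20, with 12 in each scoring at or above the list median of 128.26. The window from 16000001 held 19 peaks, that from 4000001 held 18 and that from 7000001 held 15. In the window from 4000001, 14 of the 18 peaks scored at or above the list median. The windows between these held 3 to 6 peaks, apart from that from 11000001 with 12. The windows from 5000001 and 6000001 held 5 and 3 peaks, and none of the 3 scored above 66.49.

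On the long arm the counts were lower and more scattered. The windows from 39000001 and from 47000001 each held 16 peaks, that from 45000001 held 14, that from 34000001 held 13 and that from 38000001 held 12. The median score in the window from 47000001 was 324.46, against 113.08 in the equally full window from 39000001. Between full windows lay nearly empty ones: those from 36000001 and 37000001 held 2 and 1 peaks, and that from 44000001 held 1. No window on the long arm reached 20 peaks.

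**Figure D2:**
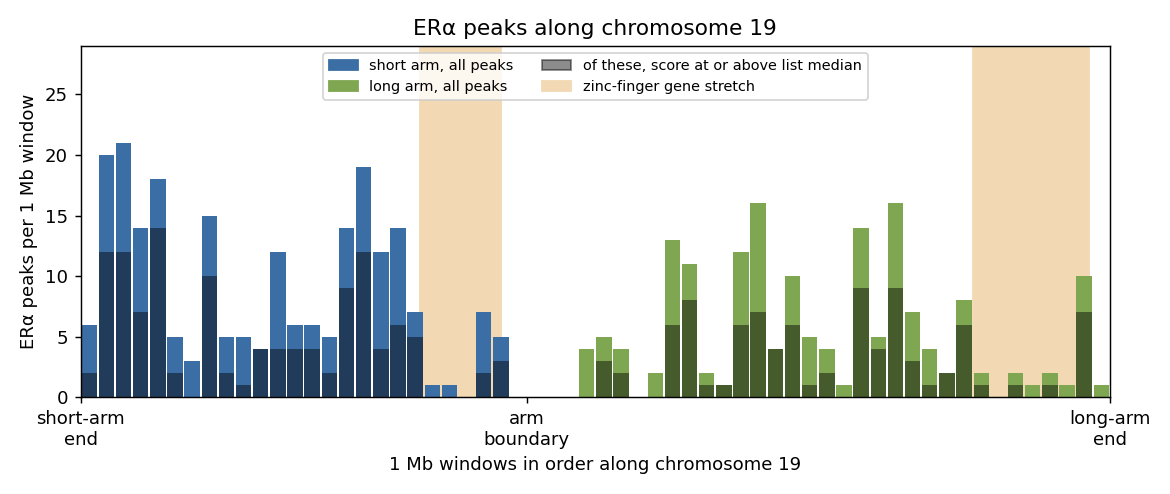
ERα peaks in each 1 Mb window of chromosome 19, in order from the short-arm end to the long-arm end (the last window is a short remainder); dark bars count peaks with a score at or above the list median, and shading marks the zinc-finger gene stretches. The highest bars, 21 and 20 peaks, lie near the short-arm end, the tallest on the long arm reach 16, and within the shading only the window with 10 peaks near the long-arm end holds more than 7.

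By cytogenetic band, the density within chromosome 19 ran from 0 to over 12 peaks per Mb. Of the 17 bands of 1 Mb or more, p13.3 had the highest density, 12.6 per Mb (10.1 to 15.6) from 87 peaks. Bands q13.32 with 12.5 (8.71 to 17.4), p13.12 with 12.2 (8.09 to 17.6) and p13.11 with 11.6 (8.41 to 15.7) followed, and the intervals of these 4 overlapped. GNG7, which encodes a G protein γ subunit, is known to lie in 19p13.3. Which of the 87 peaks fall in it was not determined. At the other end, q13.42 held 4 peaks in 2.7 Mb, or 1.48 per Mb (0.404 to 3.79), against a mean of 4.12 on the other chromosomes. It was picked as the lowest of these bands outside the centromere. The variance of window counts on chromosome 19 was 5.26 times their mean, so the interval is too narrow. A density below that mean is therefore not established for q13.42. The centromeric bands p11 and q11, which contain an unsequenced gap, held 0 peaks in 4.2 Mb, and a count of 0 there allows up to 0.878 per Mb.

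Chromosome 19 has a band make-up of its own, so its density was also compared with bands of like stain elsewhere. Light Giemsa-positive bands (class gpos25) take up 41.7% of its length, against 6.46% elsewhere, and it has no darker Giemsa-positive band. In Giemsa-negative bands, chromosome 19 had 8.28 peaks per Mb against 5.49 elsewhere, a ratio of 1.51 (1.30 to 1.75). In gpos25 bands the densities were 7.47 and 6.39, and the ratio of 1.17 (0.996 to 1.37) had an interval that includes 1. In the variable bands (class gvar), p12 and q12, chromosome 19 had 27 peaks in 8.2 Mb or 3.29 per Mb (2.17 to 4.79). The gvar bands of other chromosomes held 15 peaks in 89.8 Mb, or 0.167 per Mb (0.0935 to 0.276), a ratio of 19.7 (10.1 to 39.9). How much of those bands is sequenced was not measured.

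**Figure D3:**
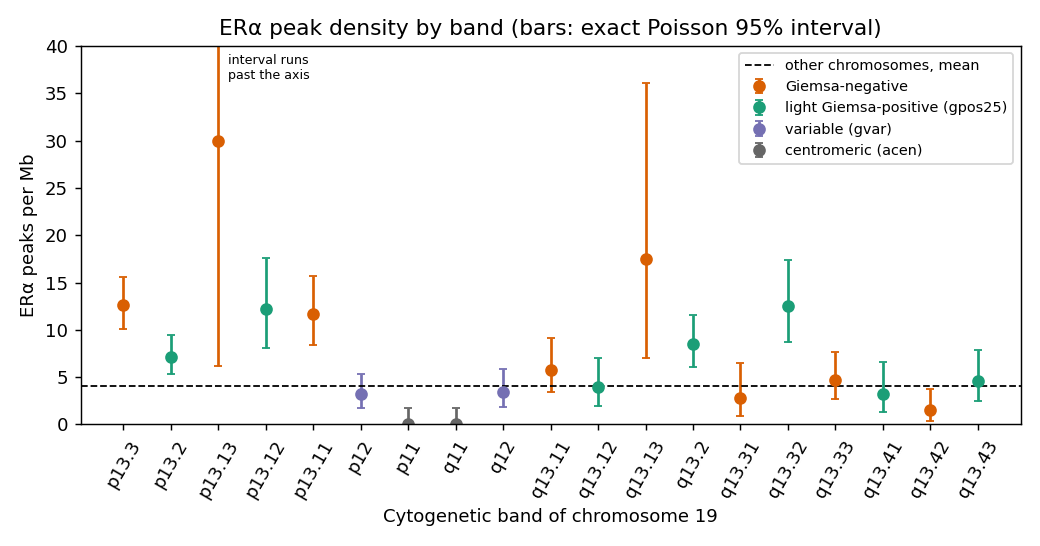
ERα peaks per Mb in each cytogenetic band of chromosome 19, ordered from the short-arm end to the long-arm end and coloured by Giemsa class, with exact Poisson 95% intervals; the dashed line is the mean of the other chromosomes, 4.12. Bands p13.3, p13.12, p13.11 and q13.32 lie at 11.6 to 12.6, and the very short bands p13.13 and q13.13 have wide intervals from 3 and 7 peaks.

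ERα peaks were sparse in the zinc-finger gene stretches. The short-arm stretch, from 19.8 to 24.5 Mb, held 14 peaks or 2.98 per Mb (1.63 to 4.998), and the long-arm stretch, from 52.0 to 58.8 Mb, held 18 or 2.65 per Mb (1.57 to 4.18). The rest of the chromosome had 7.60 per Mb (6.84 to 8.43). Both stretches together had 0.366 times the density of the rest (0.247 to 0.526). Against its own arm, the ratio was 0.301 (0.162 to 0.516) for the short-arm stretch and 0.462 (0.266 to 0.755) for the long-arm stretch. The stretches did not differ from each other beyond counting error (ratio 1.13, 0.518 to 2.39). Their density was also below that of the other chromosomes, with a ratio of 0.676 (0.462 to 0.955), whereas the rest of chromosome 19 stood at 1.85 (1.66 to 2.05). The variance of window counts on chromosome 19 was 5.26 times their mean, so these intervals are too narrow. With an upper limit of 0.955, a lower density than on the other chromosomes is therefore not established for the stretches. The stretches are taken as given, and which genes they hold was not checked in hg19.

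Within each stretch the peaks were bunched, and most of the length held no peak. On the short arm, 12 of the 14 peaks lay between 23583012 and 24257160, a span of 674 kb. The other 2 stood alone at 20790762 to 20791228 (score 104.53) and 21625240 to 21625620 (score 57.94). The highest score in this stretch, 1331.46, was at 23583012 to 23583710, followed by 478.68 at 23748011 to 23748685 and 273.19 at 24000424 to 24000823. Next were 189.01 at 24256679 to 24257160 and 140.97 at 24239142 to 24239683. These 5 were the only peaks of the 14 to reach the list median of the score. No peak lay between 19706581 and 20790761, so the peak nearest to the edge at 19.8 Mb on the outside was at 19706194 to 19706580 with a score of 130.31.

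On the long arm, 9 of the 18 peaks lay in 78.7 kb, between 58309962 and 58388678, and 7 of these 9 scored at or above the list median. The highest were 1208.94 at 58324441 to 58325177 and 1141.35 at 58349843 to 58350748. Next came 571.89 at 58309962 to 58310452, 571.29 at 58363008 to 58363580 and 567.46 at 58310475 to 58310995. Between 52 and 58 Mb there were 8 peaks, of which 389.33 at 56643704 to 56644408 was the highest score and 343.41 at 52310343 to 52311096 the second. Without its fullest 1 Mb window, which holds the group of 9, the ratio of this stretch to the rest of the chromosome went from 0.348 to 0.175 (0.0752 to 0.349). For both stretches without their fullest windows it was 0.203 (0.113 to 0.340). No window was taken from the rest, so these ratios could only fall. They show how much of each count lay in its fullest window, and are no further sign of sparseness.

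The peaks inside the stretches were not shown to differ in kind from the others. Of the 32, 15 (46.9%) scored at or above the list median, against 54.4% of the 362 peaks outside, a difference of -7.54 points (Newcombe interval -24.3 to 9.91). Their median width was 473 bp against 483.5 bp. None of the 32 reached a score of 3100, where 10 of 362 outside did, but the interval of that difference, -5.01 to 8.03 points, includes 0. With 14 and 18 peaks, only large differences in such shares could have been seen.

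The 3 longest stretches without a peak lay across the centromere and in the zinc-finger stretches. The longest ran from 24257161 to 29496189, 5.24 Mb across the centromere. The second, 2.17 Mb from 52311097 to 54485849, lay in the long-arm zinc-finger stretch, and the third, 1.96 Mb from 21625621 to 23583011, in the short-arm one. Next in length were gaps outside both, from 31792599 to 33192942 (1.40 Mb) and from 37064381 to 38422933 (1.36 Mb). In all, 9 gaps between neighbouring peaks were over 1 Mb and summed to 16.7 Mb, while the median distance between the edges of neighbouring peaks was 36.4 kb. Peaks reached both ends of the chromosome: the first, at 60027 to 60409, scored 69.69, and the last, at 59097877 to 59098185, scored 56.25 and ended 30798 bp before the chromosome end.

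Peaks on chromosome 19 were slightly narrower than those elsewhere, and their median width was lower in each of 4 score classes. The median width was 482.5 bp (quartiles 396 and 601) against 505 bp (412 and 646) on the other chromosomes, the eighth narrowest of 23. In the whole list 50.1% of peaks reached the list median width of 505 bp. On chromosome 19, 176 of 394 (44.7%) did, against 50.3% on the other chromosomes, a difference of -5.59 points (-10.5 to -0.571). This interval included 0 for peaks at or above the list median score (-2.29 points, -8.75 to 3.37) and for peaks without a neighbour within 10 kb (-4.77, -11.3 to 2.18).

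Divided into 4 score classes at the quartiles of the list, from lowest to highest, the median widths on chromosome 19 were 369, 433, 487.5 and 633 bp, against 401, 456, 532 and 691 bp elsewhere. The differences in the share of wide peaks were -12.3, -16.1 and -13.1 points in the lower 3 classes, with intervals below 0. In the highest class 91.8% and 90.3% of peaks passed 505 bp, so this share (1.49 points, -4.83 to 5.33) says little about width there. Chromosomes 17 and 20, nearest in density, had wider peaks, with medians of 563 and 570 bp. Of their peaks, 64.7% and 63.99% reached the list median width, and the differences of 19 minus 17 and 19 minus 20 were -20.04 points (-26.1 to -13.8) and -19.3 points (-25.9 to -12.5). Chromosome 22 had a median of 468 bp, and its difference from 19 had an interval that includes 0. Arms did not differ in width beyond counting error (42.2% and 47.9%, -5.71 points, -15.5 to 4.16). The widest peak ran from 7683143 to 7685467 (2325 bp), followed by 43768699 to 43770263 (1565 bp, score 2845.00) and 36773359 to 36774907 (1549 bp). The last of these was wide with a score of only 68.75. The narrowest were 234, 241 and 260 bp wide, at 18742936 to 18743169, 29543149 to 29543389 and 2549829 to 2550088, and scored 54.68, 54.45 and 50.98.

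**Figure D4:**
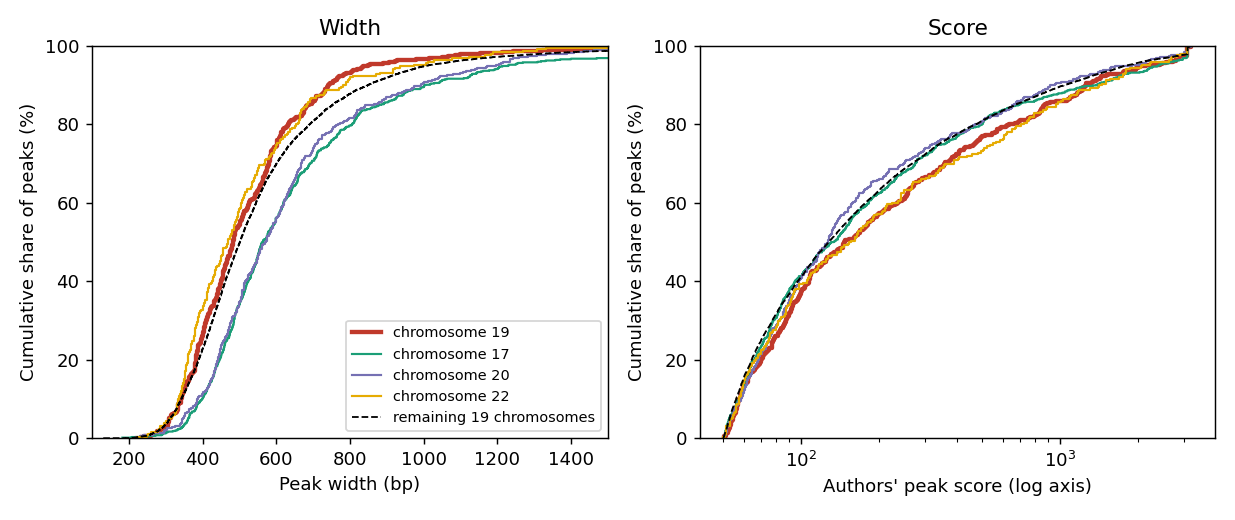
Cumulative share of peaks by width (left, without the widest peaks) and by the authors' score (right, log axis) on chromosome 19, on chromosomes 17, 20 and 22, and on the remaining chromosomes. The width curve of chromosome 19 rises near that of 22 and to the left of 17 and 20 (medians 482.5, 468, 563 and 570 bp), and its score curve also lies near that of 22.

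Scores on chromosome 19 had a larger upper part than those elsewhere. The median was 146.81 (quartiles 77.92 and 463.52), against 127.69 (70.30 and 342.47) on the other chromosomes, and ranked 5 of 23. Of the whole list, 50% of peaks reach the list median by construction. On chromosome 19, 212 of 394 (53.8%) did, 3.93 points above the other chromosomes, with an interval of -1.09 to 8.87 that includes 0. The top 25% of the list was a division chosen after the scores had been seen. It took in 122 of 394 (31.0%) on chromosome 19 against 24.8% elsewhere, a difference of 6.19 points (1.76 to 11.0). It also exceeded chromosome 17 by 5.89 points (0.304 to 11.6) and 20 by 7.12 (0.959 to 13.2), while the interval against 22 included 0. On each arm 53.8% of peaks reached the list median, and the interval of the difference, -9.89 to 9.80 points, allows a sizeable gap either way.

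A score of 3100 or more, at which the list has many ties, was reached by 2.12% of all peaks and by 10 of 394 (2.54%, 1.38 to 4.61%) on chromosome 19. The highest listed value was 3203.03 at 10597092 to 10597815, in band p13.2, and the other 9 shared the score 3100. What the tied value stands for is not stated, so it is not established that these 9 rank below 3203.03. Of these, 6 lay on the short arm, at 1181445 to 1182365, 1512919 to 1514003, 4991379 to 4992621, 7683143 to 7685467, 16574330 to 16575308 and 18557420 to 18558518. The 3 on the long arm were at 34370517 to 34371582, 35808232 to 35808935 and 41426527 to 41427960. Of the 10, 7 had another centre within 10 kb, against 192 of all 394 peaks, and 9 lay in windows with 10 or more peaks, against 261 (66.2%) of all. Scores of 3100 or more made up 3.65% of peaks with such a neighbour and 1.49% of those without, and the interval of the difference, -1.20 to 5.98 points, includes 0. The peak listed at 3203.03 had its nearest neighbour 802 bp away, but only 4 peaks in its window and 2 others within 200 kb. Just below the 10 came 2905.21 at 2524764 to 2525529 and 2876.71 at 15599028 to 15600077.

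ERα peaks on chromosome 19 had near neighbours more often than elsewhere, already within 2 kb. In the whole set, 41.4% of peaks have another centre within 10 kb. On chromosome 19, 192 of 394 (48.7%) did, against 41.1% on the other chromosomes, a difference of 7.58 points (2.61 to 12.6). Chromosome 19 also had 1.62 times the peak density of the others, and such shares rise with density. Whether spacing differs apart from density was not tested. Chromosomes 17, 20 and 22 had 46.7%, 46.2% and 52.0%, and the intervals of their differences from 19 included 0. Within 2 kb, a distance chosen after the spacing had been seen and met by 18.8% of all peaks, chromosome 19 had 108 peaks or 27.4%, the highest share of the 23 chromosomes. This was 8.85 points (4.62 to 13.5) above the other chromosomes, 6.67 (1.35 to 12.1) above 17 and 12.3 (6.70 to 17.9) above 20, while the interval against 22 included 0 (5.41, -1.52 to 11.99). Peaks with their nearest neighbour 2 to 10 kb away made up 21.3% on chromosome 19 and 22.6% elsewhere (-1.27 points, -5.10 to 3.10). This class leaves out peaks already counted within 2 kb, so it does not confine the excess to that distance. Within 5 kb the difference from the other chromosomes was 10.7 points (5.82 to 15.7).

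The nearest centre was a median of 11.2 kb away on chromosome 19 (lower quartile 1.77 kb), against 17.5 kb (3.15 kb) elsewhere, again without allowance for density. Of the 393 neighbouring pairs, 47 had edges within 1 kb and 31 within 500 bp. The closest pair was 4 bp apart, so such pairs may not be separate binding sites, and whether the caller divided single regions was not tested. Peaks with a neighbour within 10 kb scored at or above the list median in 60.9% of cases, against 47.03% of the 202 without, a difference of 13.9 points (4.06 to 23.4). The same peaks were also wider, with 52.1% against 37.6% at or above the list median width (14.5 points, 4.64 to 23.9). Both contrasts were taken on chromosome 19 only, so neither is shown to be particular to it. The sparse zinc-finger stretches did not lack close pairs, since 19 of their 32 peaks (59.4%) had a neighbour within 10 kb. The share was 47.8% in the rest of the chromosome, a difference of 11.6 points (-6.29 to 27.5).

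**Figure D5:**
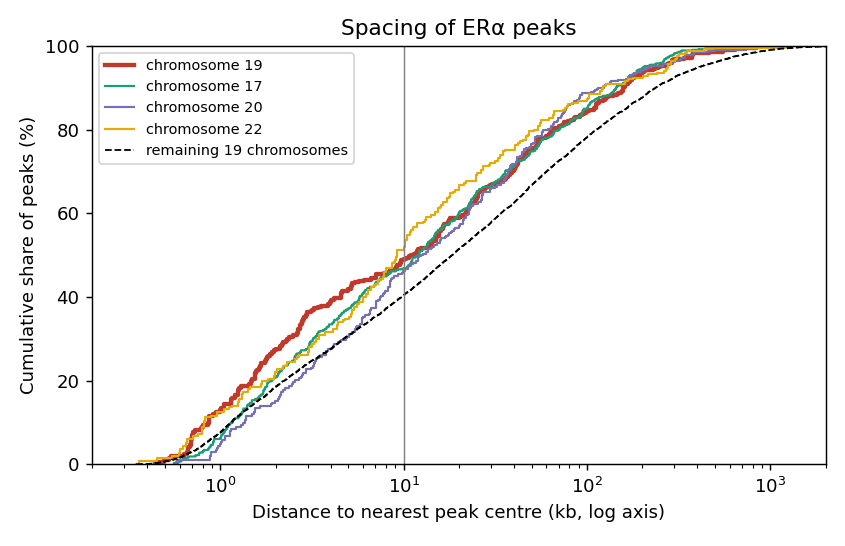
Cumulative share of peaks by distance to the nearest peak centre (log axis) on chromosome 19, on chromosomes 17, 20 and 22, and on the remaining chromosomes; the vertical line marks 10 kb. The curve of chromosome 19 lies above the others from about 1 to 5 kb, reaching 27.4% at 2 kb, and meets those of 17 and 20 by 10 kb, where it stands at 48.7%.

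Merging of peaks with edges within 10 kb left 266 regions on chromosome 19, of which 200 held a single peak and 66 held more. Regions of 5 or more peaks numbered 6 and held 46 peaks, or 11.7% (8.87 to 15.2%), against 7.06% (6.62 to 7.53%) on the other chromosomes. The share was 14.2% on 17, 2.68% on 20 and 10.8% (7.53 to 15.3%) on 22, so 22 was close to 19. Because the share on chromosome 19 rests on 6 regions, its interval is too narrow. In 5 of the 6 the top score was 2552.93 or more, and 5 of the 6 also held peaks under the list median.

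The largest region, in p13.3 at 1164981 to 1185970, held 10 peaks in 21.0 kb in groups of 5 and 5. The first group, from 1164981 to 1170755, had its highest scores at 1166653 (1963.70) and 1169920 (1828.29). The second, from 1180483 to 1185970, included the peak with score 3100 at 1181445 and peaks of 859.57 and 766.50. Also in p13.3, the region at 2516772 to 2550088 held 9 peaks in 33.3 kb. It was led by scores of 2905.21, 1439.27 and 1427.10, while its median was only 137.17 and its last peak, at 50.98, was among the lowest of the chromosome.

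The other 4 regions lay on the long arm. In q13.12 at 35800273 to 35810441, 6 peaks in 10.2 kb all scored at or above the list median, the top ones being 3100 and 1193.59. In q13.2 at 39620851 to 39651401, 7 peaks in 30.6 kb included scores of 2792.03 and 2034.19, and 4 of the 7 were under the list median. Band q13.32 had a pair of such regions. That at 45238147 to 45252127 held 7 peaks with scores up to 2552.93, of which 6 reached the list median, and that at 47404873 to 47428956 held 7 with scores up to 1499.08, of which 4 did. Spacing inside the 6 regions was irregular, with coefficients of variation from 48.2 to 133%.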

How the data were processed

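The sources were 1 deposited list of ERα peaks over input from T47D cells. The score is the value the authors' peak caller gave each peak, and its scale is not stated. Peak names carry the MACS prefix, per the file; HOMER, Bowtie 0.12.9, CASAVA 1.8 and the hg19 build are named, without roles, per the submitters' processing notes. For the caller's version, thresholds and read filters, the sources used here give nothing.

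Chromosome lengths came from GenomeInfoDb 1.38.1, hg19 bands from circlize 0.4.16, and gene counts and order from RefSeq's GRCh38.p14 table, whose coordinates were not used. Densities carry exact Poisson intervals, ratios exact conditional (Clopper-Pearson) intervals, shares Wilson intervals and differences of shares Newcombe intervals, all at 95%. Since each kind of library was made once, samples were not tested against each other and no p-value appears. The interval and spacing code was tested on simulated data.

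The members, stretches, comparison chromosomes and divisions were chosen with earlier results of these data known. Regions were named by rule: the 10 highest scores and all of 3100 or more, the 5 fullest windows per arm, the 5 highest scores per stretch, regions of 5 or more peaks, the 5 longest gaps, and the 3 widest and narrowest peaks. Other peaks, windows and bands, and the divisions at 2 kb, by band and at the top 25% of the score, were picked after their values were seen. Alternatives covered score, merging, lengths, edges and distances. Tools were R 4.3.3, SciPy 1.17.1, NumPy 2.4.6, matplotlib 3.10.9, pandas 2.3.3 and Python 3.11.15.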

Additional observations from a re-analysis of the deposited data

How the results depend on the processing

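Of 46 alternatives, 33 stayed within the interval of the reported value. The density ratio of chromosome 19 to the others was 1.39 without windows that hold no peak, 1.85 without the zinc-finger stretches and 1.17 in gpos25 bands, against 1.62. The ratio of the stretches to the rest was 0.207 with edges moved inward by 0.5 Mb and 0.203 without the fullest window of each, against 0.366; for the long-arm stretch these were 0.135 and 0.175, against 0.348. The share of peaks in the 10 fullest windows was 48.1% for peaks at or above the list median score, against 42.4%. The width difference was -12.3, -16.1, -13.1 and 1.49 points in the 4 score classes, lowest first, and the spacing difference -1.27 points for nearest centres 2 to 10 kb away. Some of these shifts follow from how the values are built. Taking out the fullest windows of the stretches could only lower their ratios. In the highest score class 91.8% and 90.3% of peaks pass 505 bp, which leaves that share little room to differ. The 2 to 10 kb share is only a part of the 10 kb share, so it does not reverse the spacing result. The cause of the other shifts was not tested. The arm ratio stayed between 1.62 and 1.72. No paired analysis was possible because the ChIP and the input were each sequenced as a single library. Since read depth is unknown, weak sites may be missing from the list to an unknown extent.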
